A study of Mus musculus with 13 samples.

Results

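NCoR and SMRT are paralogous nuclear receptor co-repressors, and the regions described here are those that ChIP-seq assigned to them in mouse embryonic stem cells (ESCs), divided by whether a region was listed for both proteins or for only 1 of them. ChIP-seq (chromatin immunoprecipitation followed by sequencing) recovers and sequences the DNA bound by a protein or carrying a histone mark. The ESC NCoR list held 3687 intervals and the ESC SMRT list 4324, and together they gave 5268 distinct intervals; the 12 peak lists of the series have 164043 entries in all, with intervals in several lists counted in each. An interval was called shared where its coordinates were identical in both lists, and otherwise NCoR-only or SMRT-only. By this rule 2743 intervals were shared, 944 were NCoR-only and 1581 were SMRT-only.

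The ESCs were grown in serum-free N2B27 medium with leukemia inhibitory factor and the inhibitors CHIR99021 and PD0325901, which hold cells in the naive state, and no transgene or genotype is named for them. For comparison, the series holds H3K27ac lists from the same ESC type and from mouse embryonic fibroblasts (MEFs), and NCoR and SMRT lists from MEFs at day 9 after introduction of OCT4, SOX2, KLF4 and c-MYC (OSKM). It also holds H3K27ac lists from OSKM cultures at days 5, 9 and 13 given FLAG as a control or else HDAC3-YF, a mutant HDAC3 that cannot deacetylate; the OSKM cultures are mixed populations in which most cells do not complete reprogramming. Each group was 1 library, so no value has a spread between cultures and no test between conditions was made; the 95% intervals below cover the counting of genomic intervals only, and neighbouring intervals are not fully independent. In a check of the H3K27ac labels, all 10 ESC markers had more peaks in the ESC list (66 against 11 in all) and all 10 fibroblast markers had more in the MEF list (51 against 3).

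NCoR and SMRT do not bind DNA themselves. Nuclear receptors without ligand, and other transcription factors, bring them to chromatin, where each forms a complex with HDAC3, TBL1X or TBL1XR1 and GPS2. Both proteins carry the domain that binds and activates HDAC3, which removes acetyl groups from histones, including the mark at lysine 27 of histone H3 (H3K27ac) found at active promoters and enhancers. Because their complexes are so alike, whether the paralogs occupy the same or separate regions is a recurring question, and the 2 ESC lists allow it to be asked region by region.

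The promoters at which the classes met annotated start sites give a view of the DNA involved. The sequences below are the parts of RefSeq promoter windows (build GRCm38.p6, the assembly also called mm10) that lie under an interval, written along the gene's strand, for 3 shared, 2 NCoR-only and 2 SMRT-only intervals among the named genes. Capitals mark matches to any of 14 short transcription factor motifs searched on both strands, and overlapping matches run together. They are shown so that the base composition and motifs of the 3 classes can be seen side by side: all 7 stretches are rich in G, C and CpG.
Psmc3ip, shared, chr11:101095476-101095675, minus strand: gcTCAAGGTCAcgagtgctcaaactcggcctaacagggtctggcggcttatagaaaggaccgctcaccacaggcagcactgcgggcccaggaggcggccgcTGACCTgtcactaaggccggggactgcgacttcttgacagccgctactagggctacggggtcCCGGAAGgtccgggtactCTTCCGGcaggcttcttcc
Ocln, shared, chr13:100552449-100552574, minus strand: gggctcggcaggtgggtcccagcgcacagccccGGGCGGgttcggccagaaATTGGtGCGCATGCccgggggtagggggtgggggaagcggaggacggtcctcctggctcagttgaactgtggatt
Hdac2, shared, chr10:36974294-36974442, plus strand: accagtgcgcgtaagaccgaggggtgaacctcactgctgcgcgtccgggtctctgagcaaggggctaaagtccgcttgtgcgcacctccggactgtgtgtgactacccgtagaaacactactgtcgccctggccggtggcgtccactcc
Zfp384, NCoR-only, chr6:125009419-125009579, plus strand: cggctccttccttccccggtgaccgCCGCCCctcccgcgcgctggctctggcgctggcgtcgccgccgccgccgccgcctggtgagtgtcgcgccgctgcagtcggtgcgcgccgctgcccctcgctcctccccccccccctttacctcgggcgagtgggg
Otud4, NCoR-only, chr8:79639575-79639725, plus strand: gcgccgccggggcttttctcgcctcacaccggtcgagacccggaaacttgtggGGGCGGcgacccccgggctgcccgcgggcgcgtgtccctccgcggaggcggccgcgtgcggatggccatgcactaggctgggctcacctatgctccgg
Fgf18, SMRT-only, chr11:33147377-33147576, minus strand: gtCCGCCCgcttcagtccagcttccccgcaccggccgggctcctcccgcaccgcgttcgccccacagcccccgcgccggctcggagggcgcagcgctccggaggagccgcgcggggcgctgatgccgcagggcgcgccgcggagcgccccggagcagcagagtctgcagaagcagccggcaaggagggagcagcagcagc
Setd7, SMRT-only, chr3:51560793-51560992, minus strand: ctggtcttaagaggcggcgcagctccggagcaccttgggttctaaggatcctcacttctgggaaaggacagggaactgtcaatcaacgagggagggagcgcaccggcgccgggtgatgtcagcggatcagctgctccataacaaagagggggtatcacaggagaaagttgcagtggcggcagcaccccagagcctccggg

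The shared stretch of Psmc3ip, a meiotic recombination cofactor, was 63.5% G and C with 14 CpGs, and it was the only printed one with the nuclear receptor half-site AGGTCA, which it held on each strand, the first time within the extended half-site TCAAGGTCA. It also held the ETS motif CCGGAAG on each strand. The stretch of Ocln, which encodes the tight junction protein occludin, held a GC box (GGGCGG, bound by SP and KLF factors), a CCAAT box and an NRF1 motif (GCATGCGC). The NCoR-only stretch of the zinc finger gene Zfp384 was 79.5% G and C with 25 CpGs, and the SMRT-only stretch of Fgf18, a growth factor gene, was 78.0% with 28 CpGs. Both held GC boxes, as did the NCoR-only stretch of Otud4, a deubiquitinase gene. The Otud4 interval is an exception in its class: its deposited score, described below, is -0.29, while nearly all NCoR-only scores are at least 1. The stretches of Hdac2, a class I histone deacetylase, and Setd7, a lysine methyltransferase, matched none of the 14 motifs.

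Over all promoters, those under co-repressor intervals were CpG-rich whichever list the interval came from. Of 21238 promoter windows (250 bases before to 50 after a start site), 618 were overlapped by a shared interval, 167 by an NCoR-only and 220 by a SMRT-only interval. Their median G and C content was 66.7%, 66.0% and 64.7% respectively, against 56.3% over all windows and 62.3% over 9805 windows acetylated in ESCs without an interval. The ratio of observed to expected CpGs had medians of 0.87, 0.86 and 0.84, against 0.57 over all windows and 0.80 over the acetylated ones. The 3 classes thus lay within about 2 percentage points of each other in base composition and above both backgrounds.

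In all 3 classes the GC box was more frequent than over all windows, and the nuclear receptor half-site was not. The GC box was present in 74.6% of the shared windows (interval 71.0 to 77.9%), 70.7% of the NCoR-only (63.4 to 77.0%) and 67.7% of the SMRT-only ones (61.3 to 73.6%), against 46.2% of all windows and 69.4% of the acetylated ones without an interval. AGGTCA was present in 9.71% of the shared windows (7.62 to 12.3%), 11.4% of the NCoR-only (7.41 to 17.1%) and 12.3% of the SMRT-only ones (8.57 to 17.3%), against 14.7% of all windows and 11.1% of the acetylated ones without an interval. The E-box CACGTG, the site bound by MYC and other bHLH factors such as CLOCK, was present in 12.0% of the shared (9.65 to 14.8%), 10.2% of the NCoR-only (6.45 to 15.7%) and 5.91% of the SMRT-only windows (3.49 to 9.85%), with 7.84% over all windows and 10.9% over the acetylated ones. The shares of the shared and SMRT-only windows overlapped only at the edge of their intervals, and with 14 motifs in 3 classes no difference was tested. These windows end 50 bases after the start site, and the motifs were searched in the whole window rather than under the interval.

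The division into classes can be read against the score that the lists carry. More than 50% of all intervals were shared, and SMRT-only intervals were more numerous than NCoR-only ones. Shared intervals were 52.1% of the joint list (50.7 to 53.4%), NCoR-only 17.9% (16.9 to 19.0%) and SMRT-only 30.0% (28.8 to 31.3%), so that shared intervals made up 74.4% of the NCoR list and 63.4% of the SMRT list. In the day 9 OSKM cultures the balance of the single-list classes lay the other way, with 66.3% of 6036 intervals shared, 19.5% NCoR-only and 14.2% SMRT-only. The 2 populations were each 1 library per protein, and depth is unknown, so these shares were not tested against each other.

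The deposited score is signed, and it was identical in both lists at every shared interval, which marks the lists as products of 1 joint list rather than of separate peak calls. It had a median of 0.00 in the shared class (range -0.99 to 1.00), 1.37 in the NCoR-only class (-0.85 to 2.90) and -1.44 in the SMRT-only class (-3.24 to 0.98). Limits at -1 and 1 gave the class of 5211 intervals (98.9%). The exceptions were 35 NCoR-only intervals under 1, of which 12 overlapped a SMRT interval at shifted coordinates, and 22 SMRT-only intervals above -1, of which 11 overlapped an NCoR interval. Just outside the upper limit lay an NCoR-only interval at 1.010 in Smyd3, and just inside it a shared interval at 0.998 in Pard3. At the lower limit SMRT-only intervals at -1.025 in Wdr13 and beside Prtg faced shared intervals at -0.990 in Rhobtb3 and Ywhag. The meaning of the score is not stated, and since it is no peak height, how strongly either protein was recovered at an interval is not known from the files.

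Where the intervals lie relative to genes separated the shared class from both single-list classes, and did not separate NCoR-only from SMRT-only. An interval was counted at a gene end where its centre lay within 1 kb of either annotated end of 1 of 21887 protein-coding genes. Of the shared intervals 68.5% met this (66.7 to 70.2%), against 42.2% of the NCoR-only (39.0 to 45.3%) and 42.6% of the SMRT-only intervals (40.2 to 45.1%). The shared class exceeded the NCoR-only class by 26.3 percentage points (22.7 to 29.9) and the SMRT-only class by 25.8 (22.8 to 28.8). NCoR-only minus SMRT-only was -0.470 points, and its interval of -4.43 to 3.52 includes 0 and leaves room for a difference of up to about 4 points either way.

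The median distance to a gene end was 439 bp for shared, 2927 bp for NCoR-only and 2607 bp for SMRT-only intervals, and 86.1%, 70.6% and 73.4% of them lay inside a gene body. More than 100 kb from any gene end were 2.22% of the shared, 6.99% of the NCoR-only and 6.83% of the SMRT-only intervals. Where a promoter table gave the gene's strand, nearly all of these ends were 5′ ends: 98.5% of the shared, 96.6% of the NCoR-only and 93.1% of the SMRT-only intervals at an end, with 22, 11 and 38 intervals at 3′ ends.

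**Figure D1:**
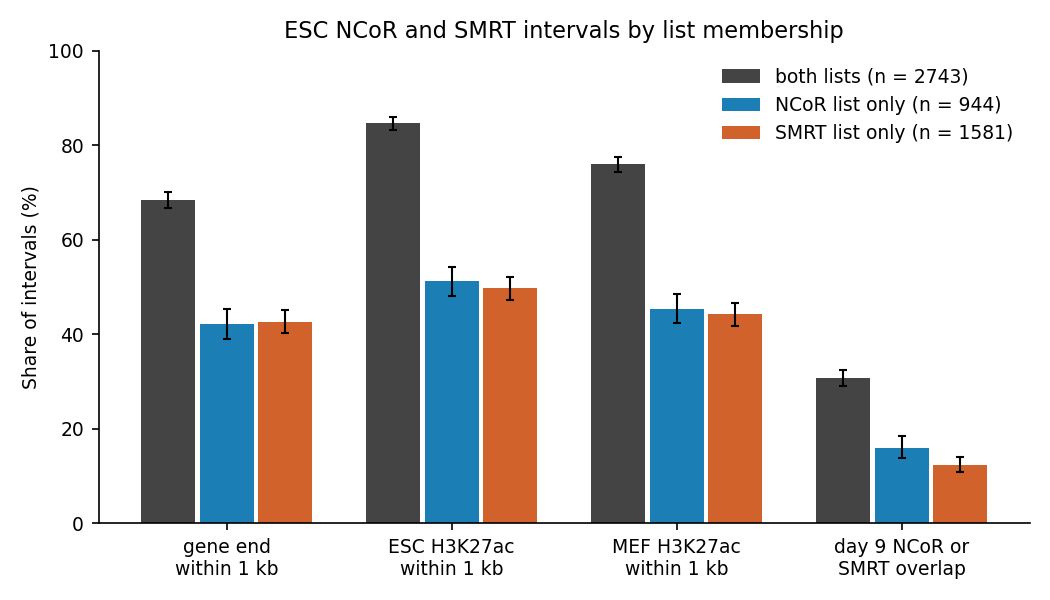
Share of intervals in each class (y axis, percent) that lay within 1 kb of a gene end, within 1 kb of ESC or MEF H3K27ac, or overlapped a day 9 NCoR or SMRT interval. Bars are shares and lines 95% Wilson intervals over genomic intervals; in each of the 4 measures the shared class stands above both single-list classes, and those 2 lie close together.

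Around start sites the intervals of every class sat mostly downstream, over the first transcribed bases. Of the 1699 shared intervals within 1 kb of a start site in the promoter table, 84.6% had their centre downstream (82.8 to 86.2%), with a median of 209 bp. For 364 NCoR-only intervals it was 78.8% (74.4 to 82.7%) with a median of 188 bp, and for 598 SMRT-only intervals 78.6% (75.1 to 81.7%) with a median of 229 bp. The stretch from 100 to 400 bp downstream held 55.6% of the shared, 45.3% of the NCoR-only and 44.6% of the SMRT-only intervals near start sites.

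ESC H3K27ac intervals showed a like position, with 77.9% downstream and a median of 163 bp, and 25.4% of them lay within 100 bp of the start site against 12.3% of the shared co-repressor intervals. At day 9 the NCoR-only intervals stood closer to the start, with a median of 62 bp and 60.6% downstream (57.1 to 63.9%), while the day 9 SMRT-only median was 162 bp with 79.0% downstream (75.0 to 82.6%). In ESCs the downstream shares of the single-list classes were 78.8% and 78.6%. The difference between the populations was not tested.

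**Figure D2:**
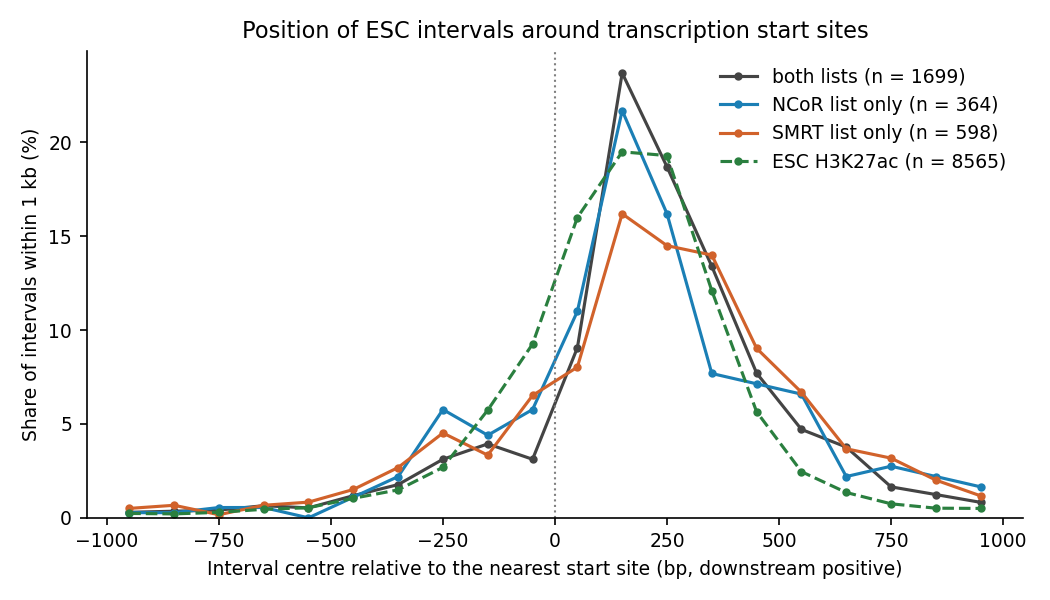
Position of interval centres relative to the nearest start site (x axis, bp, downstream positive) as the share of intervals within 1 kb (y axis, percent, bins of 100 bp), for the 3 ESC classes and ESC H3K27ac. All 4 curves have most of their area downstream of 0; the medians are 209, 188 and 229 bp for shared, NCoR-only and SMRT-only intervals and 163 bp for H3K27ac.

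Acetylated chromatin surrounded most shared intervals and about 50% of the single-list ones. ESC H3K27ac had a peak centre within 1 kb of 84.7% of the shared intervals (83.3 to 86.0%), 51.2% of the NCoR-only (48.0 to 54.3%) and 49.8% of the SMRT-only intervals (47.3 to 52.2%). The shared class was higher by 33.5 points than NCoR-only (30.1 to 37.0) and by 34.9 points than SMRT-only (32.1 to 37.7). NCoR-only minus SMRT-only was 1.39 points (-2.64 to 5.41). When direct overlap of the 200 bp intervals was required, the shares were 47.1%, 27.1% and 23.2%, and NCoR-only then exceeded SMRT-only by 3.91 points (0.427 to 7.46).

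The gene-end and distal intervals were also taken apart. At gene ends 95.5% of the shared, 88.7% of the NCoR-only and 84.4% of the SMRT-only intervals were near ESC H3K27ac. Away from gene ends the shares were 61.2%, 23.8% and 24.0%, so the shared class was higher by 37.3 points than NCoR-only (32.4 to 42.0) and by 37.1 points than SMRT-only (32.7 to 41.3). In points, the gap between shared and single-list intervals was larger away from gene ends than at them. NCoR-only minus SMRT-only was 4.27 points at gene ends (-0.0440 to 8.29) and -0.226 points elsewhere (-4.67 to 4.37).

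Most ESC intervals near ESC H3K27ac were also near MEF H3K27ac. MEF H3K27ac lay within 1 kb of 76.0% of the shared, 45.4% of the NCoR-only and 44.2% of the SMRT-only ESC intervals. Acetylation in ESCs but not in MEFs marked 11.0% of the shared (9.86 to 12.2%), 9.00% of the NCoR-only (7.34 to 11.0%) and 9.55% of the SMRT-only intervals (8.20 to 11.1%), and over all intervals the 3 class differences have intervals that include 0. Among distal intervals it marked 19.2% of the shared, 10.8% of the NCoR-only and 11.1% of the SMRT-only ones, and the shared class was higher by 8.38 points (4.58 to 12.0) and 8.06 points (4.73 to 11.4). Across the 6 OSKM lists the share near H3K27ac ran from 71.6 to 79.2% for shared, 40.5 to 44.7% for NCoR-only and 38.8 to 45.9% for SMRT-only intervals, without a library in which the order of shared over single-list changed.

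All 8 H3K27ac lists had a peak near 64.5% of the shared, 35.0% of the NCoR-only and 33.3% of the SMRT-only intervals. At the other end, 10.1% of the shared (9.03 to 11.3%), 42.4% of the NCoR-only (39.3 to 45.5%) and 42.8% of the SMRT-only intervals (40.4 to 45.3%) had no H3K27ac within 1 kb in any of the 8. Of the distal intervals, 69.0% of the NCoR-only and 67.9% of the SMRT-only ones were without H3K27ac in all 8 lists, against 28.1% of the shared.

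**Figure D3:**
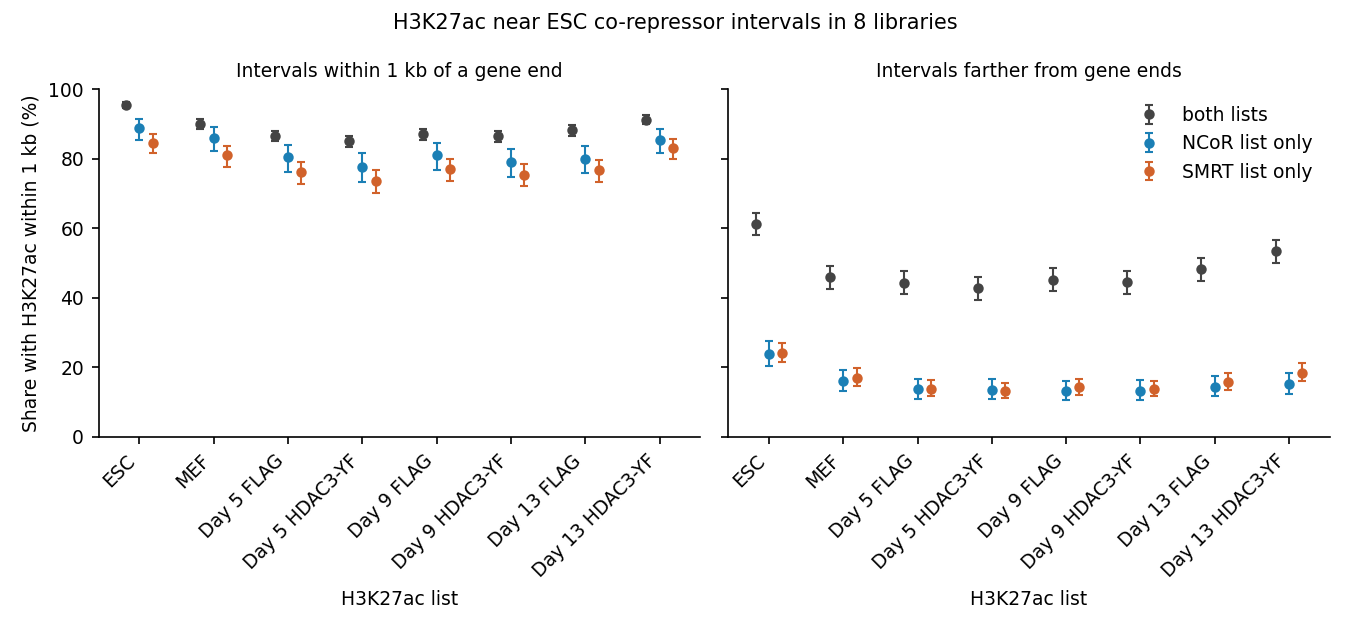
Share of ESC co-repressor intervals with H3K27ac within 1 kb (y axis, percent) in each of 8 H3K27ac lists (x axis), for intervals at gene ends (left) and farther away (right). Points are shares and lines 95% Wilson intervals; at distal intervals the shared class (61.2% in ESCs) stands far above both single-list classes (23.8% and 24.0%) in every list.

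Along the deposited score the shares formed a roughly symmetric profile about 0. Limits on the score give the class of 98.9% of intervals, so this is the same division described again and not separate evidence. The share at a gene end was 28.6% among 238 intervals with scores from -4 to -2, 72.2% among 717 from -0.5 to 0, and 26.6% among 139 from 2 to 3. ESC H3K27ac followed with 31.9%, 88.4% and 28.8% in the same bins. Between the limits the share near H3K27ac was 82.3%, 88.4%, 85.5% and 82.9% in successive bins from -1 to 1. Just beyond the limits it was 58.5% from -1.5 to -1 and 54.7% from 1 to 1.5. Farther out it was lower again, at 42.5% from -2 to -1.5 and 50.0% from 1.5 to 2. Thus intervals scored most strongly to the NCoR side and those scored most strongly to the SMRT side had like shares at gene ends and near H3K27ac.

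**Figure D4:**
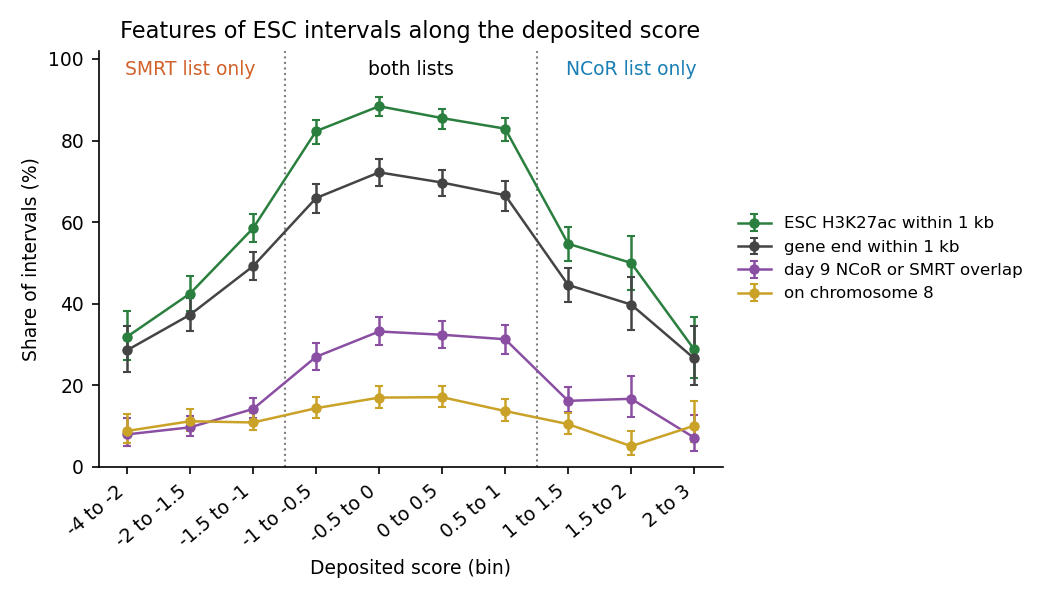
Share of ESC intervals (y axis, percent, with 95% Wilson intervals) at gene ends, near ESC H3K27ac, overlapping a day 9 interval or on chromosome 8, by bin of the deposited score (x axis). Dotted lines mark the limits at -1 and 1 that nearly always separate the classes; ESC H3K27ac peaks at 88.4% just below 0 and falls to 31.9% and 28.8% in the outermost bins.

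Recurrence in the day 9 OSKM cultures asked whether a region listed in ESCs was also listed for either co-repressor in cells during reprogramming. Shared ESC intervals recurred most. A day 9 NCoR or SMRT interval overlapped 30.8% of the shared (29.1 to 32.5%), 15.9% of the NCoR-only (13.7 to 18.4%) and 12.3% of the SMRT-only intervals (10.8 to 14.0%). NCoR-only exceeded SMRT-only by 3.56 points (0.773 to 6.46), and without chromosome 8 by 2.76 points (-0.176 to 5.84), where the interval includes 0. At gene ends the shares were 36.8%, 31.9% and 24.8%, and elsewhere 17.7%, 4.21% and 3.09%. At gene ends shared exceeded NCoR-only by 4.88 points, with an interval that includes 0 (-0.315 to 9.80). NCoR-only there exceeded SMRT-only by 7.13 points (1.58 to 12.8), and elsewhere by 1.13 points (-0.804 to 3.36).

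Most ESC single-list intervals that recurred met a day 9 interval listed for both proteins. Such shared intervals were 66.3% of all day 9 intervals, and shared ESC intervals also met them most. Of the shared ESC intervals 24.5% met a shared day 9 interval, 4.12% an NCoR-only and 2.81% a SMRT-only one. Of the NCoR-only ESC intervals 11.5% met such a shared day 9 interval, 3.50% an NCoR-only one (33 intervals) and 1.38% a SMRT-only one (13). Of the SMRT-only ESC intervals 9.17% met a shared day 9 interval, 2.02% an NCoR-only (32) and 1.64% a SMRT-only one (26). NCoR-only intervals are also the more numerous single-list class at day 9, at 1176 against 857 intervals. Over 1189 ESC intervals with an overlapping day 9 interval, the scores of the 2 populations had a Pearson correlation of 0.08 and a Spearman correlation of 0.07 across regions, given as a description.

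By gene, 2072 protein-coding genes (9.47% of 21887) had a shared interval within 1 kb of an end, 455 (2.08%) an NCoR-only and 757 (3.46%) a SMRT-only interval, and 3113 (14.2%) had an interval of any class. Only shared intervals stood at the ends of 1966 genes, only NCoR-only intervals at 347 and only SMRT-only intervals at 633. Genes with ESC H3K27ac at an end held nearly all of them: of 10633 such genes 18.6% had a shared, 3.90% an NCoR-only and 6.12% a SMRT-only interval, against 0.853%, 0.355% and 0.942% of the other 11254 genes.

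Both single-list classes met at 65 genes, which were 14.3% of the genes with an NCoR-only and 8.59% of those with a SMRT-only interval. At Birc6, an inhibitor of apoptosis, a SMRT-only interval with a score of -1.56 lay 323 bp from the gene end, an NCoR-only interval with 0.99 at 551 bp and a SMRT-only interval with -1.16 at 802 bp. At Me1, the cytosolic malic enzyme, SMRT-only intervals with -0.27 and -1.39 flanked an NCoR-only interval with 1.90 at 260 bp. The genes Otud4 and Gm51579, on opposite strands, shared their 3 intervals, NCoR-only at -0.29, SMRT-only at -1.34 and NCoR-only at 0.07, the last 2 of which overlap. All the intervals at the ends of these 4 genes were near H3K27ac in all 8 lists, as were those of 4930503L19Rik. At LOC108167320, where both classes also met, the 2 NCoR-only and 1 SMRT-only intervals at the ends were near H3K27ac in ESCs alone. An interval of another class lay within 1 kb of 12.8% of the NCoR-only, 7.84% of the SMRT-only and 3.65% of the shared intervals.

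The gene lists below cover the pathways that NCoR and SMRT are known for and the cell states of the study; as a whole they stood near the background. Of 272 genes in 11 lists, 22 (8.09%) had a shared interval at an end, 7 (2.57%) an NCoR-only and 5 (1.84%) a SMRT-only interval, and 34 (12.5%) had any, against 9.47%, 2.08%, 3.46% and 14.2% of all protein-coding genes. With counts this small the classes say nothing particular about a list, and the genes are described one by one.

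In a list of the complex, its recruiters and other cofactors, coactivators included, 5 of 29 genes (17.2%) had an interval at an end. Over all genes it was 14.2%. Tbl1xr1, which encodes a subunit of the NCoR and SMRT complexes, had a shared interval at chr3:22075726-22075925 with a score of -0.13, 428 bp from its end and near ESC but not MEF H3K27ac. Hdac2 had a shared interval with 0.78, 45 bp from its end, and Ncoa3, a coactivator that competes for the same receptors, 1 with -0.81. Its paralogs Ncoa1 and Ncoa2 had SMRT-only intervals at their ends with -1.32 and -1.56. Ncor1, which encodes NCoR, had no interval in its body or 20 kb around it, and Hdac3 had a shared interval 1036 bp from its end.

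Nuclear receptors, the classical recruiters, had 3 of 30 genes (10.0%) with an interval, all of them orphan receptors. Nr2c2 (TR4) had a shared interval with -0.37 at 377 bp. Nr2c1 (TR2) had a SMRT-only interval with -2.71 at 590 bp, and Nr6a1 (germ cell nuclear factor, which represses Pou5f1 during differentiation) a SMRT-only interval with -2.33 at 688 bp. All 3 were near H3K27ac in ESCs and MEFs, and those of Nr2c2 and Nr2c1 overlapped shared day 9 intervals. None of 18 retinoic acid response genes had an interval of any class at an end, where 14.2% of all genes had 1, and 7 of the 18 had ESC H3K27ac there, a group in which 2873 of 10633 genes over all had 1.

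Of the pluripotency genes 3 of 30 (10.0%) had an interval at an end, near the 14.2% of all genes. Klf5, which supports naive self-renewal, had a shared interval with -0.12, and Utf1, a chromatin factor of pluripotent cells, a shared interval with -0.37. Fgf4, the ligand through which ESCs drive their own ERK signalling, had an NCoR-only interval at chr7:144861400-144861599, 113 bp from its end, near H3K27ac in ESCs and at day 13 and overlapping a shared day 9 interval. In the germ layer list 4 of 30 (13.3%) had an interval. Dnmt3b, a de novo DNA methyltransferase, had 2 shared intervals with 0.24 and 0.58, and the transcription factor genes Sox7 and Msx2 had shared intervals with 0.41 and 1.00; that of Sox7 had no H3K27ac nearby in any of the 8 lists. Foxa2, a master regulator of endoderm, had an NCoR-only interval with 1.01, just past the limit and without H3K27ac in any of the 8 lists. It lay 997 bp from an end of the gene but 1590 bp from its start site in the promoter table.

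The signalling genes of the FGF and LIF pathways held 3 of the 7 NCoR-only genes of the lists. That is 10.0% of the 30 signalling genes, where 2.08% of all genes had an NCoR-only interval, and with so few genes it was not tested. Jun, an AP-1 subunit, had an NCoR-only interval with 1.99 at 589 bp, and Dusp4, an ERK phosphatase, and Fgfr1, an FGF receptor, had NCoR-only intervals with 1.07 and 1.09. The last 2 lie on chromosome 8 and close to the limit. Stat3, the effector of LIF, had a shared interval with 0.52. Of the 30 signalling genes, 4 (13.3%) had an interval, so the list as a whole was near the 14.2% of all genes.

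Of 18 clock genes 3 (16.7%) had an interval, against 14.2% of all genes. Clock had a shared interval with 0.89 that overlapped a shared day 9 interval, while the cryptochrome gene Cry1 had an NCoR-only interval with 1.18. Among 22 MYC-driven growth genes, 19 had ESC H3K27ac at an end, a group in which 18.6% of all genes had a shared interval. Of the 22 genes 3 (13.6%) had an interval, all of them shared. Over all genes 14.2% had any interval and 9.47% a shared one. The 3 were the nucleolar genes Ncl, with 0.58 and -0.34, and Wdr43, with -0.48, and the growth regulator Pa2g4, with -0.37.

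Epithelial genes had 5 of 25 members (20.0%) with an interval, and fibroblast genes 2 of 30 (6.67%). The junction genes Epcam (0.78), Ocln (0.34) and Dsp (-0.72) and the splicing regulator Esrp2 (0.19) had shared intervals, and the desmosome gene Pkp2 an NCoR-only interval with 1.09. Those of Epcam, Ocln and Dsp were near H3K27ac in ESCs and not in MEFs. In the fibroblast list Zeb1, a repressor of epithelial genes, had a shared interval with 0.89 and Lox, a collagen cross-linking enzyme, a SMRT-only interval with -2.69 that was near H3K27ac in MEFs and not in ESCs. Of the housekeeping genes Sdha, a subunit of succinate dehydrogenase, had a shared interval with 0.01.

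The genes with the most intervals in their body and 20 kb around it are given for each class, without scaling for gene length. For the shared class they included Tenm3 with 6, the telomere-binding protein gene Terf2 and the nuclear import receptor gene Tnpo2 with 5, and Cars2 and the chromatin remodeller gene Chd9 with 4, all of these on chromosome 8. For the NCoR-only class they included Anapc5, a subunit of the anaphase-promoting complex, and Gab1, an adaptor of receptor tyrosine kinases, with 3, and Acad10, Adk, Arntl and Atp8b5 as the first in alphabetical order of those with 2. For the SMRT-only class genes with 3 each included 2610507B11Rik, Sdf2 and Supt6, which neighbour each other and count the same 3 intervals, and Ildr2 and Ube4a. Several of these genes also held other classes. Tenm3 and Chd9 each had 1 NCoR-only and 1 SMRT-only interval, and Gab1, also on chromosome 8, had 2 shared and 1 SMRT-only. Others, such as Anapc5 and Ildr2, held 1 class only. Arntl encodes BMAL1, the partner of CLOCK, and its interval at chr7:113208118-113208317 (score 1.69) lay 706 bp from a start site in the promoter table.

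The most extreme scores were found both at gene ends and far from them. On the NCoR side these were 2.90 outside E330021D16Rik, 2.80 at B3glct, Wdr59 and Zfp384, and 2.69 at Cdkn2aipnl. Those of B3glct, Zfp384 and Cdkn2aipnl were at gene ends and near H3K27ac in all 8 lists, and the other two had no H3K27ac. On the SMRT side these were -3.24 at LOC115488765 and -3.14 at Fgf18, Mok, Prkce and Setd7. The intervals of LOC115488765, Fgf18 and Setd7 stood at gene ends near ESC H3K27ac, the 1 in Mok lay 5821 bp from an end, and that in Prkce 239396 bp from an end without H3K27ac. That of LOC115488765 lay 135 bp from an end but 13000 bp from its start site in the promoter table.

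Chromosome 8 stood apart from every other chromosome in the ESC co-repressor lists, and in the shared class most. It held 4.77% of the protein-coding genes but 14.0% of the NCoR and 13.9% of the SMRT intervals in ESCs, with 15.7% of the shared (14.4 to 17.2%), 9.11% of the NCoR-only (7.44 to 11.1%) and 10.8% of the SMRT-only intervals (9.32 to 12.4%). The ESC H3K27ac list had 6.51% of its intervals there, the MEF list 5.32%, and the day 9 NCoR and SMRT lists 5.62% and 5.80%. Of the chromosome's genes 27.4% had a shared interval at an end, against 8.57% of all other genes, and among genes with ESC H3K27ac at an end the shares were 43.4% and 17.0%.

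The division into classes moved with it: 62.8% of the 688 intervals on chromosome 8 were shared (59.1 to 66.3%), against 50.5% elsewhere (49.0 to 51.9%). The shared class stood above both single-list classes on chromosome 8 and elsewhere. At gene ends were 63.2% of the shared, 37.2% of the NCoR-only and 32.4% of the SMRT-only intervals on chromosome 8, and 69.5%, 42.7% and 43.9% on the other chromosomes, where the single-list classes have the opposite order. Near ESC H3K27ac the shares were 79.6%, 44.2% and 40.6% on chromosome 8 and 85.6%, 51.9% and 50.9% elsewhere. The part of copy number in these counts was not tested.

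**Figure D5:**
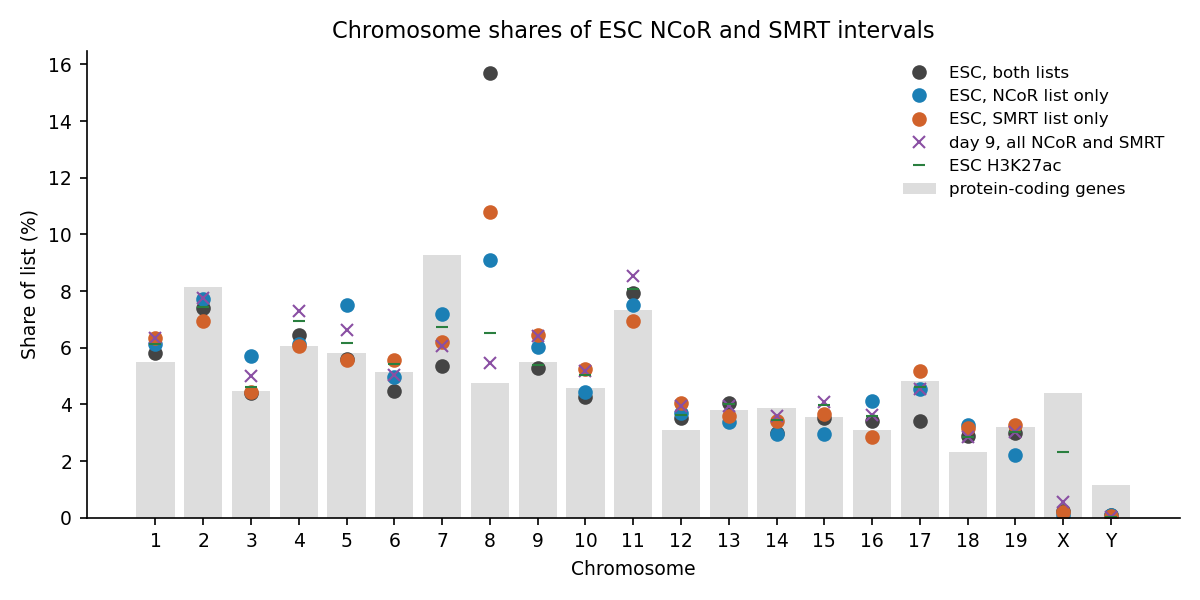
Share of each list on each chromosome (y axis, percent). Grey bars are protein-coding genes, circles the 3 ESC classes, crosses all day 9 NCoR and SMRT intervals and dashes ESC H3K27ac; on chromosome 8 the shared class reaches 15.7% against 4.77% of the genes.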

How the data were processed

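ChIP-seq peak lists of 12 of the 13 libraries were used, and the ESC input was not analysed here. Per the submitters' processing notes the reads were aligned with Bowtie2 2.2.0 and peaks called with MACS 1.4 on mm10; no source used here gives settings, read depth or the step that made every interval 200 bp wide. The deposited score of each interval has no stated scale, is signed in the NCoR and SMRT lists and was used only to describe intervals.

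ESC intervals were classed by identical coordinates in both lists. Distances run between centres. Shares carry 95% Wilson intervals and differences 95% Newcombe intervals (Python 3.11.15 scripts, tested on simulated data). Gene positions, names and promoters came from RefSeq tables of GRCm38.p6. A start-site analysis was planned where strand was known, but the promoter table covers 79.9% of the 21887 protein-coding genes, so both annotated ends served as the main measure and start sites as an alternative. No genome sequence was used here, so sequences come from promoter windows only, where an interval covers at least 100 bases.

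Named genes were the list members with an interval at an end, the 6 genes per class with the most intervals, the 5 most extreme scores per side, the genes where both single-list classes meet, and those nearest to a score of 0. Some of them are not reported here. The regions and gene lists were chosen with earlier results of these data known. Alternatives changed the class rule, distances, gene set, H3K27ac list and chromosomes; leaving out chromosome 8, start sites, and the gene-end split for MEF H3K27ac and day 9 were added after the data were examined.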

Additional observations from a re-analysis of the deposited data

How the results depend on the processing

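The excess of the shared class over the single-list classes together kept its direction, with an interval that excludes 0, in all 37 alternatives run, from 23.8 to 35.5 points for gene ends, 9.52 to 46.1 for ESC H3K27ac, 7.25 to 40.8 for MEF H3K27ac and 9.37 to 24.0 for day 9 overlap. NCoR-only minus SMRT-only changed sign in 7 of 37 alternatives, each time within an interval that includes 0. For gene ends (-0.470 in the report) it was 0.445 with the more extreme scores alone, 0.313 with all annotated genes and 0.735 with start sites; for ESC H3K27ac it was -0.961 with intervals within 1 kb merged and -0.226 at distal intervals, and for MEF H3K27ac -1.53 and -1.04 in the same settings. It came to exclude 0 with direct overlap of ESC H3K27ac (3.91) and for MEF H3K27ac at gene-end intervals (5.07). For day 9 overlap it no longer excluded 0 with merged intervals (2.19), without chromosome 8 (2.76), at distal intervals (1.13) or with centres within 1 kb (3.14). At gene-end intervals it was highest, at 7.13 (1.58 to 12.8). The cause of these changes was not tested.

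The shared percentage of the joint list was 55.7 with centres within 1 kb, 54.3 after merging and 50.5 without chromosome 8. Counting list genes by gene body plus 20 kb gave 51 shared, 21 NCoR-only and 24 SMRT-only genes, and gene ends of 2.5 kb gave 8 SMRT-only genes; wider windows hold more intervals. No paired analysis was possible because each group is 1 library. Depth is unknown, and the score gives no height, so an interval missing from a list cannot be told from one recovered below its threshold.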

Other observations

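Some gene families outside the lists were counted after their values were seen, so the counts are descriptions. Of 39 proteasome subunit genes, 11 (28.2%) had a shared interval at an end, 4 (10.3%) an NCoR-only and 4 (10.3%) a SMRT-only interval, and 17 (43.6%) had any, among them Psmd1, Psma3, Psmc6 and Psmb2. Over all protein-coding genes these shares are 9.47%, 2.08%, 3.46% and 14.2%. Of 101 genes for respiratory chain subunits and assembly factors 17.8% had a shared interval, of 85 cytosolic ribosomal protein genes 15.3% and of 78 mitochondrial ribosomal protein genes 8.97%. Among members with ESC H3K27ac at an end the shared shares were 32.4% for the proteasome, 20.0% for the respiratory chain, 16.9% for cytosolic and 10.3% for mitochondrial ribosomal proteins, against 18.6% of all such genes. None of 39 Hox genes had a shared interval, and Hoxb2 had an NCoR-only interval. Of 1110 olfactory receptor genes 0.0901% had a shared interval. ESC H3K27ac stood at an end of only 13 of the Hox genes and 1 olfactory receptor gene, and the latter had the shared interval.

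The X chromosome held 0.217% of the ESC NCoR and 0.231% of the ESC SMRT intervals, against 2.31% of the ESC H3K27ac intervals and 4.41% of the protein-coding genes. At day 9 it held 0.502% of the NCoR and 0.473% of the SMRT intervals. Of 1005 miRNA hairpins in the RefSeq table, 13 had a shared interval within 1 kb, 4 an NCoR-only one (Mir1199, Mir7033, Mir7229 and Mir8104) and 3 a SMRT-only one (Mir193a, Mir7665 and Mir8105). Of 21887 protein-coding genes 2072 (9.47%) had a shared, 455 (2.08%) an NCoR-only and 757 (3.46%) a SMRT-only interval within 1 kb of an end. Whether these intervals belong to the hairpins or to neighbouring genes was not tested.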
